A study of Mus musculus with 17 samples.

Results

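The Notch pathway was followed through 10 of its genes in mouse mammary tumours. These were the receptors Notch1, Notch2, Notch3 and Notch4, the ligands Jag1, Jag2 and Dll1, and the transcription factor genes Hes1, Hey1 and Heyl, which Notch signalling activates. They were taken from a list, not from their values, but earlier results of these data were known when they were chosen. All 10 were measured among 12393 genes, each by its probe set of highest mean. The 17 tumours came from FVB mice carrying Myc T58A, a stabilised mutant of the Myc transcription factor, driven by the MMTV promoter, whose activity lies mainly in mammary epithelial cells, and every histology label also carries the words low expressing. The label named 9 tumours Squamous, 6 EMT (epithelial to mesenchymal transition), 1 Papillary and 1 Microacinar. All groups share the transgene, no normal mammary gland was analysed here, and the labels give neither the age of the animals nor how many animals there were. One title number is shared by Squamous 7 with Squamous 8, and another by Squamous 5 with the Microacinar tumour. What the p-values measure is thus only the spread between these arrays, which may be partly technical.

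Notch receptors and their ligands are both membrane proteins, so the signal passes between touching cells. A bound receptor is cut by an ADAM protease and then by gamma-secretase, and its intracellular part enters the nucleus, where it joins Rbpj and a Mastermind protein on target genes such as those of the Hes and Hey families. In stratified epithelium Notch signalling takes part in the step from basal to differentiating keratinocytes, in the mammary gland it takes part in the luminal fate, and in blood vessels it acts between endothelial and mural cells. Both Notch1 and Notch4 were found as insertion sites of the mouse mammary tumour virus in mammary tumours.

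Each array gave 1 log2 value per gene, and array medians lay between 7.23 and 7.40. There were 14 arrays with numbered titles and 3, EMT 5, EMT 6 and Squamous 9, whose titles carry TM. The SD over probe sets was 2.46 to 2.51 on the TM arrays and 2.25 to 2.29 on the numbered ones, and 2989 probe sets had exactly one value on all 3 TM arrays. In the model of the 15 EMT and Squamous tumours, 5009 of the 12393 genes (40.4%) differed between title formats (limma, adjusted p under 0.05), so the format was a term of every gene's test. The epithelial marker Cdh1, the E-cadherin gene whose loss marks epithelial to mesenchymal transition, was 11.9, 12.1 and 11.8 in EMT 1 to EMT 3, whereas EMT 4 to EMT 6 had 7.19, 8.10 and 7.04. Among Squamous tumours Cdh1 ran from 11.1 to 11.97, so 3 of the 6 tumours labelled EMT had Cdh1 near or within the Squamous range. Squamous differentiation markers, such as Krt1 and the small proline-rich proteins, averaged 6.74 to 11.99 over 12 genes in tumours labelled Squamous. In tumours labelled EMT this mean ran from 5.29 to 9.18, so the ranges overlapped. Of the 12 genes, 11 had a lower estimate in EMT and 1, involucrin, a higher one.

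None of the 10 genes passed the test between EMT and Squamous tumours, and no gene of the 12393 did (0%). By unadjusted p under 0.05, 1 of the 10 was below the limit, against 1778 of 12393 genes (14.3%), and limma was the only tool used. The ranges of the 2 groups overlapped for all 10, while 31 genes of all (0.250%) had ranges that did not. The median log2 difference of the 10 was -0.0037, against 0.0064 over all genes, and the median of their absolute differences was 0.12, against 0.13. Their spread within groups was wider: the median residual SD was 0.53 on the log2 scale for the 10 and 0.25 for all genes.

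**Figure D1:**
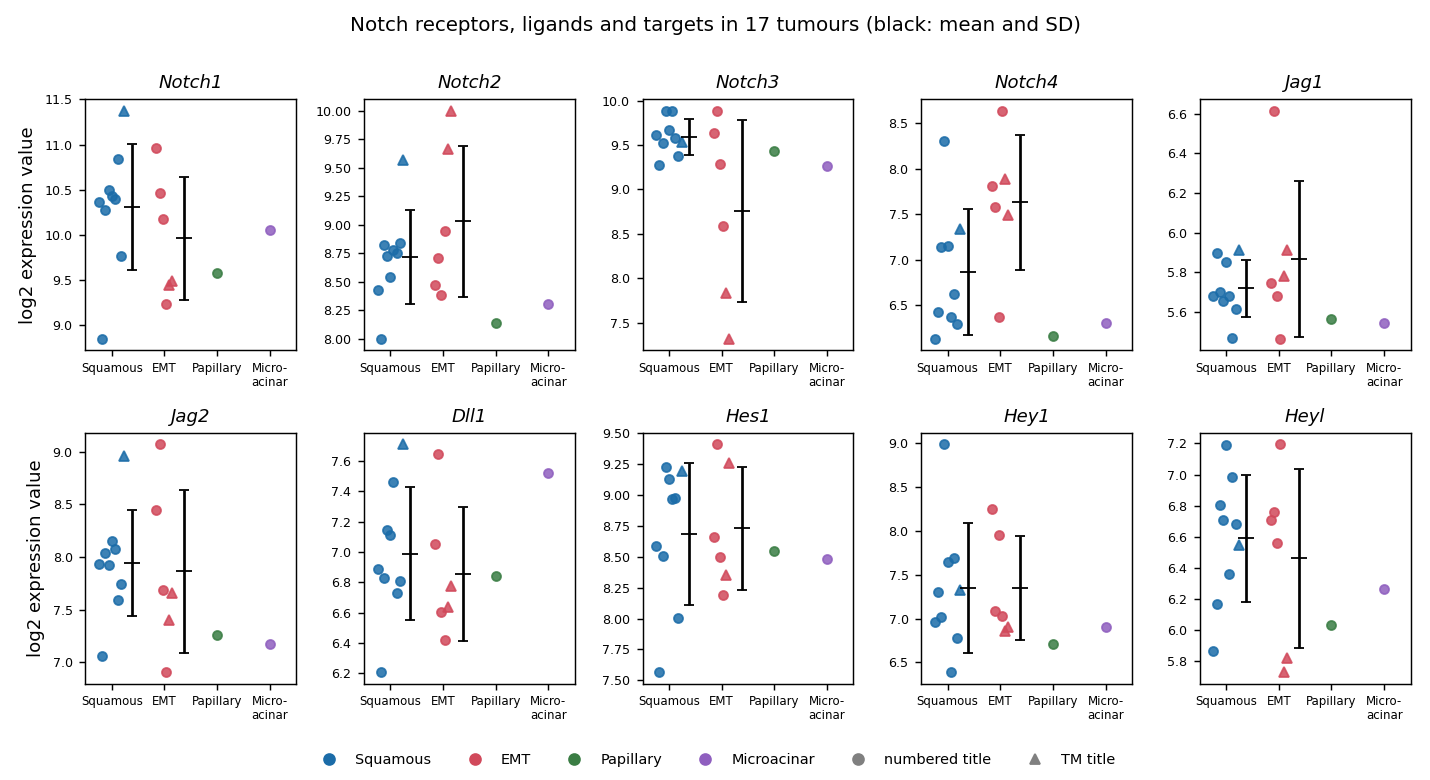
Log2 value of each of the 10 Notch genes (y axis) in the 17 tumours by histology label (x axis), with 1 point per tumour, triangles for TM titles and bars for the means of the Squamous and EMT groups. Notch3 sits between 9.28 and 9.89 in Squamous tumours and runs from 7.32 to 9.88 in EMT tumours, and the groups overlap in every panel.

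Notch1, the receptor most studied in skin and T cells, ran from 8.85 (Squamous 2) through a median of 10.4 to 11.4 (Squamous 9) in the Squamous tumours. In EMT tumours its log2 value ran from 9.24 (EMT 4) through a median of 9.83 to 10.96 (EMT 1). The group means were 10.31 ± 0.70 (SD, n = 9) and 9.96 ± 0.68 (SD, n = 6). The EMT minus Squamous difference was -0.36 (SE 0.37, limma adjusted p = 0.690), smaller than the spread within either group. Another probe set for Notch1 had r = 0.94 with the one used over the 14 numbered arrays. On the TM array of Squamous 9 it was 8.55, below EMT 1 (9.21) and EMT 2 (9.23). The top place of Squamous 9 in Notch1 therefore rests on the probe set used.

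Notch2, a receptor also made by stromal and vascular cells, ran from 7.9995 (Squamous 2) through 8.76 to 9.57 in Squamous tumours and from 8.38 through 8.83 to 10.003 (EMT 6) in EMT tumours. Its 3 highest values, 9.57, 9.66 and 10.003, were those of the 3 TM arrays, with both histologies among them. The TM minus numbered difference was 1.11 (limma adjusted p = 1.892e-04), and with that term the EMT minus Squamous difference was 0.07 (SE 0.14, adjusted p = 0.864). A further Notch2 probe set was lower on the TM arrays, at 5.45 to 5.49 against 6.35 to 6.82 on the numbered ones, and the 2 probe sets had r = 0.12. The height of Notch2 on TM arrays therefore rests on 1 probe set.

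Notch3, the receptor known from vascular smooth muscle and also made by epithelial cells, had the narrowest range in Squamous tumours of the 4 receptors, from 9.28 through 9.57 to 9.89. In the EMT tumours it was 9.64, 9.88, 9.29, 8.59, 7.84 and 7.32 from EMT 1 to EMT 6. The first 3 lay within the Squamous range, and the last 3, which are also the tumours with Cdh1 at 7.04 to 8.10, lay below its lowest tumour. The group means were 9.59 ± 0.20 (SD, n = 9) and 8.76 ± 1.03 (SD, n = 6), which differ by -0.84. With the title format as a term the difference was -0.59 (SE 0.26), with an unadjusted limma p of 0.0377 and an adjusted p of 0.325. EMT 5 and EMT 6, the 2 lowest in Notch3, were both TM arrays, so label and title format partly coincide here. Notch3 was the 1 gene of the 10 under 0.05 before adjustment, and the difference was -0.25 on numbered arrays alone (adjusted p = 0.683). The TM minus numbered difference was -1.09 (adjusted p = 0.0144), although Squamous 9, at 9.54, lay inside the range of the other Squamous tumours. The other Notch3 probe set had r = 0.90 with the one used over the 14 numbered arrays.

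Notch4, a receptor best known from endothelium, ran from 6.13 through 6.63 to 8.30 (Squamous 4) in Squamous tumours. In EMT tumours it was 7.81, 7.58, 6.37, 8.64, 7.89 and 7.49, so that 5 of the 6 lay above the Squamous median and EMT 3 below it. With the title format as a term, the difference was 0.70 (SE 0.38, limma adjusted p = 0.405). In that model it was the largest of the 10 in absolute size, and about as large as the SDs of 0.69 and 0.74. It was 0.40 with array weights, 0.42 without EMT 4 and 1.00 without EMT 3. A second Notch4 probe set, with a mean of 4.91, followed the first only loosely (r = 0.50) and gave -0.02.

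Jag1, a ligand that passes the signal to neighbouring cells, was the dimmest of the 10, below the lower quartile of all genes on 11 of 17 arrays. Its values ran from 5.47 through 5.68 to 5.91 in Squamous tumours and from 5.46 through 5.76 to 6.61 in EMT tumours, with EMT 2 apart at 6.61 and the next highest at 5.91. The difference was 0.13 (SE 0.15, limma adjusted p = 0.713). Another Jag1 probe set spanned more, from 4.26 in Squamous 2 to 7.75 in EMT 2, and had r = 0.69 with the one used. Jag2, the other Jagged ligand, ran from 7.06 (Squamous 2) through 7.94 to 8.96 (Squamous 9), and in EMT tumours from 6.90 (EMT 4) through 7.67 to 9.07 (EMT 2). Its lowest and highest values were thus both in tumours labelled EMT, and the difference was -0.12 (SE 0.33, adjusted p = 0.903). Dll1, a Delta-type ligand, ran from 6.21 through 6.89 to 7.71 in Squamous and from 6.42 through 6.71 to 7.65 in EMT tumours, with a difference of -0.18 (SE 0.23, adjusted p = 0.763). For all 3 ligands the EMT tumour with the highest value was EMT 2 and the lowest was EMT 4. EMT 2 also had the highest Krt5 and Krt14, the keratin genes of basal cells, at 13.9 and 14.6.

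Hes1, a repressor that is a direct target of Notch, ran from 7.57 (Squamous 2) through 8.97 to 9.23 in Squamous and from 8.19 (EMT 4) through 8.58 to 9.41 (EMT 2) in EMT tumours. The difference was -0.02 (SE 0.29, limma adjusted p = 0.984). Hey1, a related repressor, ran from 6.39 (Squamous 6) through 7.30 to 8.98 (Squamous 4) and from 6.85 through 7.06 to 8.25 (EMT 1), with a difference of 0.10 (SE 0.36, adjusted p = 0.924). In Hey1 the tumours labelled Squamous held both the lowest and the highest of all 17 values. Heyl, the third repressor of that family here, ran from 5.86 (Squamous 1) through 6.68 to 7.19 (Squamous 5) and from 5.73 (EMT 5) through 6.63 to 7.20 (EMT 4). Its difference was 0.01 (SE 0.22, adjusted p = 0.985), and EMT 5 and EMT 6, both TM arrays, were its 2 lowest values.

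Single tumours held several extremes at once. Squamous 2 had the lowest value of all 17 tumours for 4 genes, Notch1, Notch2, Dll1 and Hes1. EMT 2 had the highest Jag1, Jag2 and Hes1. EMT 4 had the highest Notch4 and Heyl and the lowest Jag1 and Jag2. The Papillary tumour lay within the Squamous range for all 10 genes, with Notch1 at 9.58, Notch4 at 6.16 and Jag2 at 7.26. The Microacinar tumour lay within it for 9, and its Notch3, at 9.26, was just under the lowest Squamous value of 9.28. Its Dll1, at 7.52, was above the 8 Squamous tumours on numbered arrays, whose highest was 7.46, but below Squamous 9. With 1 tumour each, neither label has a replicate, and no test was made.

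**Figure D2:**
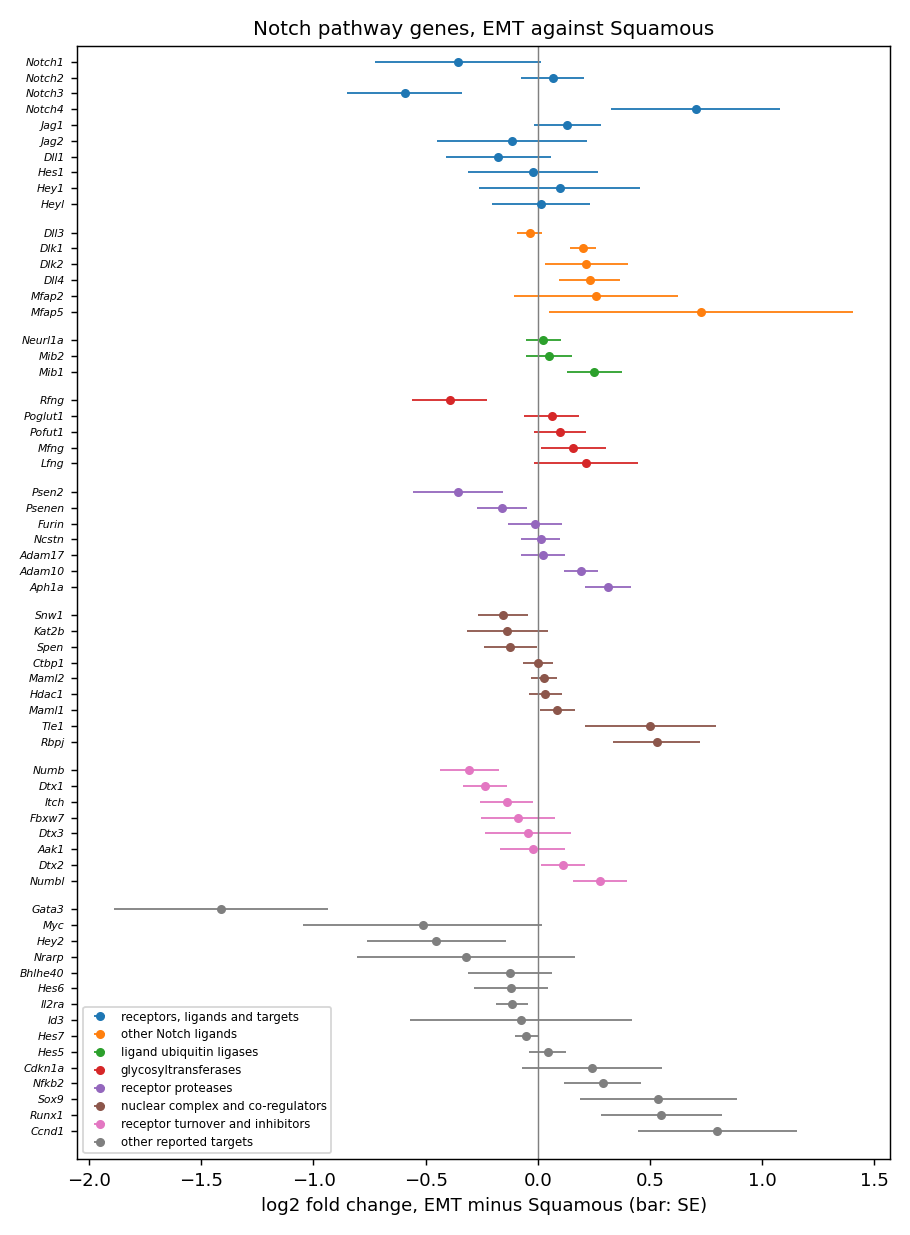
EMT minus Squamous log2 difference (x axis) of the 10 Notch genes and of the 53 other pathway genes measured. The other genes are grouped and coloured by their 7 lists, with points for the estimate and bars for 1 standard error. Notch3 is furthest left of the 10 at -0.59 and Notch4 furthest right at 0.70, and Gata3 lies at -1.41.

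Of 59 other genes of the pathway, in 7 lists by role, 53 were measured, and none passed the test (limma). By unadjusted limma p under 0.05 there were 10 of 53, against 1778 of 12393 genes (14.3%). Of the 53, 30 had a positive and 23 a negative difference, against 6417 and 5976 of all genes. The median difference was 0.03, against 0.0064 over all genes. Among 6 other ligands the largest difference was that of Mfap5, a microfibril protein that binds Notch, at 0.73 (SE 0.68, adjusted p = 0.650). Dlk1, a non-canonical ligand, had the lowest adjusted p of the 53, 0.204, with a difference of 0.20 (SE 0.06). Among 3 ubiquitin ligases that act on ligands it was Mib1, at 0.25 (SE 0.12, adjusted p = 0.367), and among 5 glycosyltransferases that modify the receptors it was the Fringe gene Rfng, at -0.39 (SE 0.17, adjusted p = 0.317).

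Among 7 genes of the proteases that cut the receptor, the largest difference was that of Psen2, a catalytic subunit of gamma-secretase, at -0.35 (SE 0.20, adjusted p = 0.431). Rbpj, the DNA-binding partner of the cut receptor, led the 9 genes of the nuclear complex and its co-regulators at 0.53 (SE 0.19, adjusted p = 0.257). Its means, not adjusted for title format, were 9.60 ± 0.21 in Squamous (SD, n = 9) and 10.27 ± 0.66 in EMT tumours (SD, n = 6). Among 8 genes of receptor turnover and inhibition it was Numb, an inhibitor that promotes endocytosis of the receptor, at -0.30 (SE 0.13, adjusted p = 0.322). Gata3, a luminal transcription factor, led the 15 other reported targets at -1.41 (SE 0.48, adjusted p = 0.238). Its SD was 0.57 in Squamous and 1.34 in EMT tumours.

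Several of the 10 genes varied together from tumour to tumour, with all histology labels pooled and no term for the label. Over the 14 numbered arrays 10 of the 45 pairs had an adjusted permutation p under 0.05, all 10 with positive r, and 38 of the 45 pairs had r above 0. The smallest r among the 10 was 0.67. That size was reached by 22.2% of these pairs and by 6.03% of the pairs of one of the 10 with any other gene. The strongest pair was Notch1 with its target Hes1, with r = 0.78 (permutation p = 9.900e-04, adjusted p = 0.0355) and Spearman's rho = 0.85 (adjusted p = 0.0056). Within the 8 numbered Squamous tumours r was 0.91 (exact permutation p = 0.0027, two-sided), but without the 2 tumours farthest from the Notch1 median, Squamous 2 and EMT 4, it was 0.57 (permutation p = 0.0530). Notch3 and Jag2 had r = 0.77 (adjusted permutation p = 0.0355) and rho = 0.82, and r = 0.78 without EMT 4 and Squamous 6.

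Hes1 was also called with Dll1 (r = 0.73), Notch3 (0.70) and Jag2 (0.69). Notch1 was called with Jag2 (0.71) and Notch3 (0.69), and Jag1 with Jag2 (0.71). Without EMT 2 the r of Jag1 with Jag2 was 0.41, and within the 8 numbered Squamous tumours it was -0.17 (exact permutation p = 0.676). With the mean of each gene's probe sets it was 0.93 over all 14 (adjusted permutation p = 9.000e-04), and Jag1 was then also called with Hes1 (r = 0.74, adjusted p = 0.0174). Apart from these, Heyl was called with Notch2 (0.68) and Notch4 (0.67). Of all other genes, 15.5% reached the size of the first r with Heyl and 9.22% with Notch2. For the second r the shares were 16.3% with Heyl and 10.6% with Notch4. For the other called pairs such shares ran from 0.371% to 4.33%. Among the called pairs 5 had a permutation p of 0.05 or more without the 2 farthest tumours. The adjusted p of the 10 lay between 0.0355 and 0.0422, so 1 tumour could move the count. It was 0 without Squamous 3, 1 without EMT 1, 2 without EMT 3 or the Papillary tumour, 3 without EMT 2 or EMT 4, and 4 without Squamous 2 or Squamous 5. With each array's median subtracted 2 pairs were called, Notch1 with Hes1 and Notch3 with Jag2. Within the 8 Squamous tumours none of the 45 passed after adjustment (smallest adjusted exact permutation p = 0.0539), and 9 had an unadjusted p under 0.05.

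**Figure D3:**
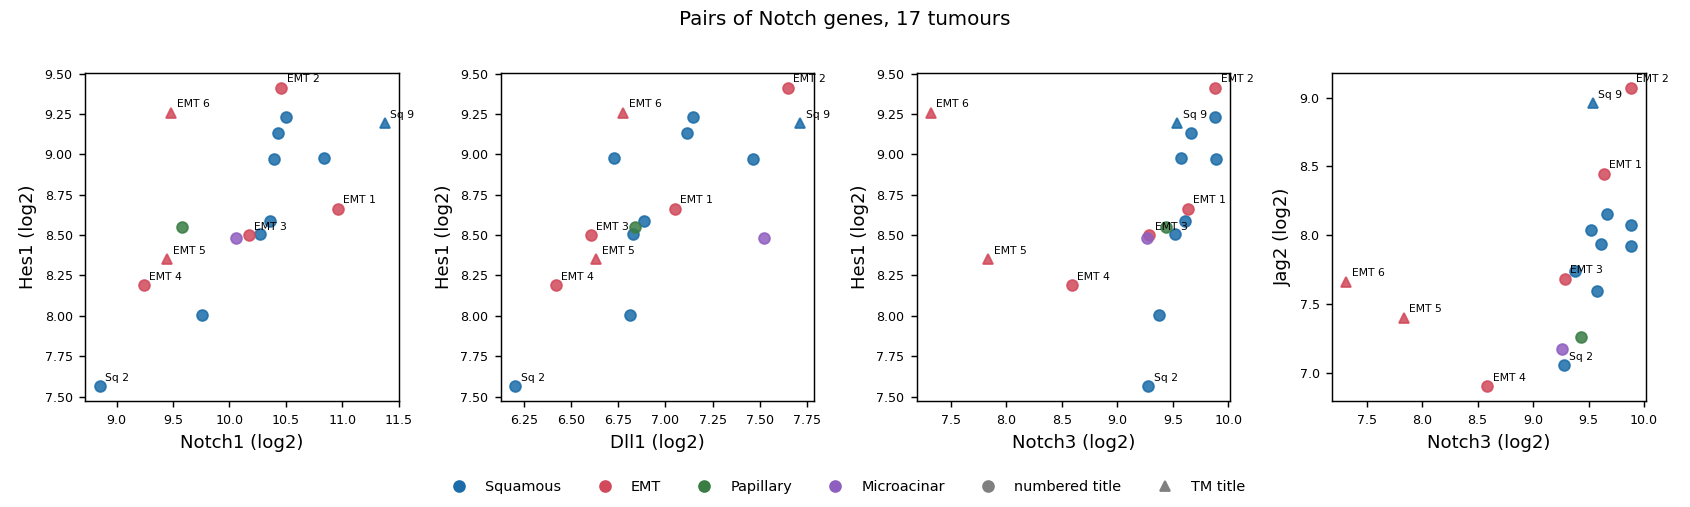
Log2 values of 4 pairs of Notch genes, with 1 point per tumour for all 17, coloured by histology label, and triangles for TM titles. Squamous 2 has the lowest and EMT 2 the highest Hes1 of the 17 tumours, and EMT 5 and EMT 6 lie apart to the left in the panels with Notch3.

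Notch1 and Notch3 were one such pair, and the RefSeq promoter windows of both are shown to let their start regions be compared. Windows of 300 bases, 250 before to 50 after the start, were at hand for 7 of the 10 genes, all but Hes1, Hey1 and Heyl. The Rbpj motif GTGGGAA, on either strand, was in none of the 7 genes' windows. It was in 6.38% of 32851 windows of all genes, and 7.245% of 27025 genes had it in any window. The motif CACGNG, also searched on both strands, which Hes and Hey proteins can bind and which overlaps the E-box CACGTG that Myc binds, was in those of 5 of the 7, Notch2, Notch3, Jag1, Jag2 and Dll1, and in 27.5% of all windows. The 27.5% counts single windows, while the 5 of 7 counts genes, of which Dll1 had 2 windows. The CACGNG motif was chosen after values had been seen, and a match of letters is not a binding site. Below are the bases upstream of each start in GRCm38.p6, on the minus strand of chr2:26503823-26504072 and of chr17:32166897-32167140, with a CACGNG match in capitals.
Notch1: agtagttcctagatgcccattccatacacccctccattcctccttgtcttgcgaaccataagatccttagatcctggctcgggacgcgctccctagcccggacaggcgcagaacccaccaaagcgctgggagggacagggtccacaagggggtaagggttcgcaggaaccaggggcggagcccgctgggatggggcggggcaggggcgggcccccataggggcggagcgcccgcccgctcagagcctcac
Notch3: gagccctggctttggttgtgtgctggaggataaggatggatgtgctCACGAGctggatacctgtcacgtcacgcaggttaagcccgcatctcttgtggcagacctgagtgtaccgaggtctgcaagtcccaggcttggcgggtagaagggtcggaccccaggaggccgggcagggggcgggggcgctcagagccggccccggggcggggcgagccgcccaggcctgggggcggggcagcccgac
The Notch1 stretch of 250 bases held no match, and the Notch3 stretch of 244 bases held 1.

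The tumours were bulk tissue, in which fewer cells of a type and less RNA per cell cannot be told apart, so each gene was set beside the mean of 11 lists of cell type markers. Of the 110 pairs 11 had an adjusted permutation p under 0.05 over the 14 numbered arrays. Notch3, Jag2 and Hes1 were called with basal or squamous keratinocyte markers, Notch2 and Heyl with fibroblast, endothelial or macrophage markers, and Notch4 was called with luminal markers with a negative sign.

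Jag2 and the basal keratinocyte mean had r = 0.89 (permutation p = 4.000e-05, adjusted p = 0.0033) and rho = 0.83. The list holds keratins of basal cells and Trp63, the transcription factor of stratified epithelium, and its mean ran from 9.19 to 10.9 in Squamous and from 6.56 to 12.1 in EMT tumours. EMT 2 had the highest Jag2 and the highest mean, and r was 0.81 without it. Notch3 had r = 0.82 with the same mean (adjusted permutation p = 0.0094) and Hes1 had 0.71 (adjusted p = 0.0473). The smallest called r over all 110 pairs was 0.71 in absolute size, that of Hes1 with the basal list, and 4.28% of 12384 genes reached it with that list. At the r of Jag2 the share of other genes was 0.275%, and at that of Notch3 1.15%. With the squamous differentiation mean, Notch3 had r = 0.80 (adjusted permutation p = 0.0051), a call lost without EMT 4 (r = 0.71, adjusted p = 0.0846), and Jag2 had 0.71 (adjusted p = 0.0419). With this list 2.90% of genes reached the smallest called size of 0.71, and 0.889% of other genes the r of Notch3. The means of the 2 lists themselves had r = 0.81. Where Notch3 was low, from EMT 4 to EMT 6, the squamous mean was 5.64, 6.59 and 5.29 and the basal mean 8.10, 6.56 and 7.63, and their part in the Notch3 values was not tested.

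Heyl had r = 0.89 with the fibroblast matrix mean (permutation p = 6.000e-05, adjusted p = 0.0033), rho = 0.86, and within the 8 Squamous tumours r = 0.89 (exact permutation p = 0.0030). The list holds collagens and other matrix genes, and its mean ran from 8.77 in Squamous 1, which also had the lowest Heyl of the numbered arrays, to 12.6 in EMT 4, which had the highest Heyl. On the TM arrays the mean was 11.6 to 12.1 while Heyl was 5.73, 5.82 and 6.55. Another Heyl probe set was 6.31, 6.35 and 6.73 on EMT 5, EMT 6 and Squamous 9, inside its range of 6.08 to 7.11 on numbered arrays, so the low Heyl of EMT 5 and EMT 6 rests on the probe set used. Heyl was also called with the endothelial (r = 0.80, adjusted permutation p = 0.0094) and macrophage (r = 0.80, adjusted p = 0.0099) means, and both calls were lost without Squamous 1. Notch2 was called with the fibroblast matrix mean (r = 0.83, adjusted permutation p = 0.0047) and the endothelial mean (r = 0.73, adjusted p = 0.0397). The smallest called size of 0.71 was reached by 15.0% of genes with the fibroblast matrix, 11.1% with the endothelial and 7.06% with the macrophage list. With the fibroblast matrix list 2.01% of other genes reached the r of Heyl and 5.11% that of Notch2. The r of Heyl was reached by 2.86% with the macrophage list and, counting positive r alone, by 2.64% with the endothelial list. With the endothelial list 8.85% reached that of Notch2 in either direction. The fibroblast matrix mean had r = 0.93 with the endothelial and 0.80 with the macrophage mean, and which of the 3 Heyl follows was not tested.

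Notch4 and the luminal and milk mean, of keratins and milk proteins of secretory cells, had r = -0.89 (permutation p = 1.300e-04, adjusted p = 0.0047) and rho = -0.79. Within the 8 Squamous tumours r was -0.92 (exact permutation p = 0.0024). With the luminal list 12.8% of genes reached the smallest called size of 0.71, and 1.07% of other genes the r of Notch4. Among numbered Squamous tumours Squamous 4 had the highest Notch4, 8.30, and the lowest luminal mean, 9.87. Although Notch4 is known from endothelium, its r of 0.66 with the endothelial mean missed the threshold (adjusted permutation p = 0.0785), as did 0.70 with the fibroblast matrix mean (adjusted p = 0.0511). By rank both passed, with rho = 0.73 (adjusted permutation p = 0.0399) and rho = 0.74 (adjusted p = 0.0364). Both also passed over all 17 tumours with each title format centred (adjusted permutation p = 0.0359 and 0.0189). On numbered arrays without EMT 4 the r was 0.60 and 0.56 (adjusted permutation p = 0.184 and 0.228). Without EMT 4 and Squamous 4, the 2 tumours farthest from the Notch4 median, the permutation p was 0.111 and 0.0765. The fibroblast matrix and luminal means had r = -0.70 with each other. Notch1, Jag1, Dll1 and Hey1 were called with none of the 11 lists over the 14 arrays. Jag1 had r = 0.71 with the basal list (adjusted permutation p = 0.0707), and 0.88 with the mean of its probe sets (adjusted p = 0.0029). Over the 17 tumours with each format centred, Notch1 was called with the basal and squamous lists (adjusted permutation p = 0.0042 for both) and with the epithelial junction list (0.0415). In that setting Dll1 was called with the basal list (adjusted permutation p = 0.0195) and Hey1, with a negative sign, with the skeletal muscle list (0.0397).

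These calls did not all rest on the same tumours. Those of Jag2 and Notch3 with the basal list, of Heyl and Notch2 with the fibroblast matrix list, and of Notch4 with the luminal list held without any 1 of the 14 tumours. Those of Notch2 with the endothelial, Jag2 with the squamous and Hes1 with the basal list were each lost without 8 or more of the 14 tumours, taken 1 at a time. The count over the 110 pairs was 7 without Squamous 1, and within the 8 Squamous tumours none passed after adjustment (smallest adjusted exact permutation p = 0.115), with 11 at an unadjusted p under 0.05. RNA integrity, read as the 3′ minus 5′ difference of control probe sets, and the Myc level were called with none of the 10 genes in 20 pairs (smallest adjusted permutation p = 0.604). The 1 pair under 0.05 before adjustment was Hes1 with the 3′ minus 5′ difference, with r = -0.55 (permutation p = 0.0417). All 10 genes had a negative r with this difference, from -0.05 for Notch2 to -0.55 for Hes1. Among the 14 tumours Squamous 2 had the largest difference, 0.59, and EMT 3 and EMT 2 had the smallest, 0.26 and 0.29. The part of RNA integrity in how the genes varied together was not tested.

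**Figure D4:**
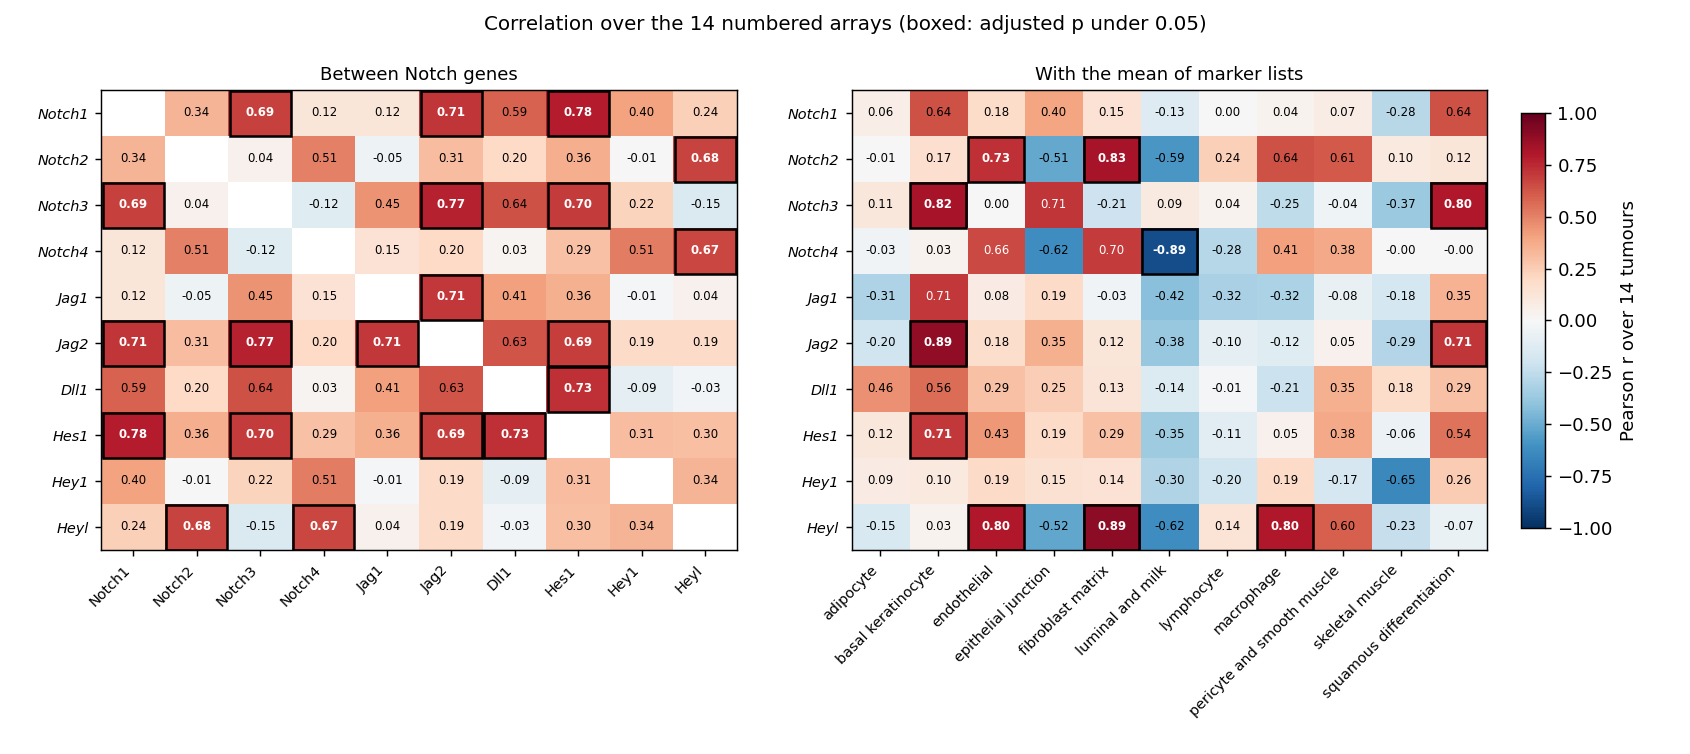
Pearson's r (colour and printed value) over the 14 tumours with numbered titles, between the 10 Notch genes (left) and between each of them and the mean of 11 marker lists (right), with boxes where the adjusted permutation p is under 0.05. Jag2, Notch3 and Hes1 each have a box in the basal column, Heyl and Notch2 in the fibroblast matrix column, and Notch4 in the luminal column at -0.89.

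**Figure D5:**
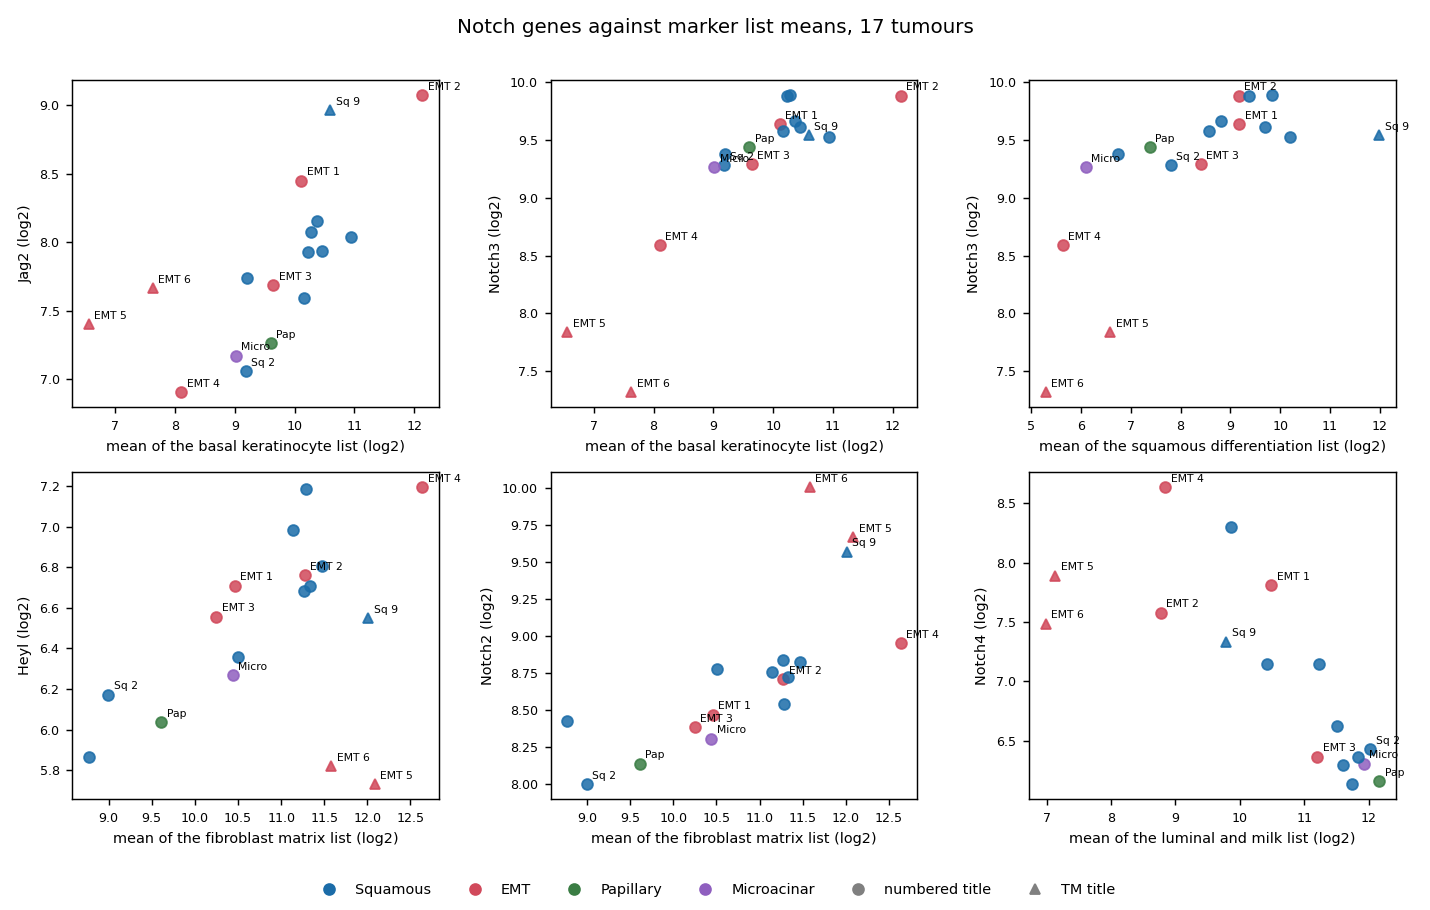
Log2 value of a Notch gene (y axis) against the mean log2 value of a marker list (x axis), with 1 point per tumour for all 17, coloured by histology label, and triangles for TM titles. The correlations in the text use the 14 circles, and the probe set used for Heyl is at 5.73 to 6.55 on the TM arrays, with fibroblast matrix means of 11.6 to 12.1.

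The genes nearest to each Notch gene were ranked by r over the same 14 tumours, as a description without a test. Nearest to Notch3 were Trp63 (r = 0.94), which is also one of the basal markers, Nectin4, an adhesion gene of epithelia (0.92), and Dmkn, the epidermal dermokine gene (0.89). Nearest to Jag2 were Cdh3, the P-cadherin gene of basal epithelial cells (0.95), the cyclin gene Ccng2 (0.94) and Trim29 (0.93). Heyl was nearest to Mmp14, a membrane-bound matrix protease (0.97), Ctsk, the collagen-degrading cathepsin K gene (0.97), and Fn1, the fibronectin gene (0.95). Notch2 was nearest to Cabp1 (0.93), whose values spanned only 3.68 to 3.99, to Zeb2, a repressor of E-cadherin (0.91), and to Olfm1 (0.90).

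Nearest to Notch4 were Qk, an RNA-binding protein gene (0.94), Mllt11 (0.93) and Tpt1 (0.93), of which Tpt1 spanned only 14.1 to 14.3. For Notch1 they were Sap30, a subunit of a histone deacetylase complex (0.88), Cdca7 (0.86) and Dffb (0.84), and for Hes1 they were Stx12 (0.88), Stag1 (0.85) and Luzp1 (0.85). Hey1 was nearest to N4bp3 (0.87), Erf (0.85) and Ss18 (0.83), and Dll1 to Taf12 (0.79), Dgat2 (0.77) and Cpne3 (0.75), the lowest values among the 10. Jag1 was nearest to Tmprss3, Serpinb9g and Usp17la (all 0.93), but the rho of the first pair was 0.54, and Jag1 had EMT 2 far above the other tumours.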

How the data were processed

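Biotin-labelled cRNA from 17 mammary tumours was hybridised to Affymetrix mouse arrays, 1 for each tumour, per the labels' protocols. The authors deposited 1 log2 value per probe set and array; their normalisation is not given in the sources used here, and the scale was inferred from the range of the values. Of 22690 probe sets, 64 controls were left out, 20380 had 1 gene symbol, 691 several and 1555 none. The number of arrays limits the precision. Where a gene had several probe sets, as 4956 did, the one with the highest mean was used.

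The EMT and Squamous groups were compared in limma 3.58.1 (R 4.3.3) by a model of histology plus title format, with Benjamini-Hochberg adjustment over 12393 genes at 0.05. On simulated data of this comparison, with 12393 genes, the model called 26 of 50 genes given a log2 change of 0.5, 32 of 50 at 1, 47 of 50 at 2 and 47 of 50 at 3, with 5 false calls. The changed genes were drawn from all genes, with normal noise of the same size in both groups. Their noise followed each gene's residual SD, whose median was 0.25 over all genes and 0.53 for the 10. These shares therefore do not give the recovery for the 10 genes. Correlations used 100000 permutations, two-sided, or all pairings for the 8 Squamous tumours, and adjustment over 45 or 110 pairs (Python 3.11.15, numpy 2.4.6, scipy 1.17.1). Promoter windows are RefSeq's, of GRCm38.p6.

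The genes and lists were chosen with earlier results of these data known. Named genes were the 10, the largest absolute difference in each pathway list, the 3 nearest genes by r and a few cell type markers; Dlk1 was added after its values were seen. Alternatives were no format term, numbered arrays only, other normalisation, other probe sets, a filter on dim genes, other model settings and leaving out each tumour.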

Additional observations from a re-analysis of the deposited data

Results flagged for a closer look

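Hey1 in Squamous 4 was 8.98, the highest of the 9 Squamous tumours, and lay 1.29 above the next. This gap was 0.498 of the group's whole range, just over the limit of 0.493 used for 9 samples. It was the 1 such value among 20 groups tested, the 10 genes in each of 2 labels, and chance alone gives about 1 in 20. Hey1 has 1 probe set among those paired with a gene, so no other measured it.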

How the results depend on the processing

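None of the 10 passed the test between EMT and Squamous tumours under any alternative, and over all genes the count was 0 to 14 on leaving out 1 tumour, 14 without EMT 1. Notch3 kept its negative sign in all 27 alternatives, with adjusted p from 0.190 to 0.683, and each of the 9 others turned in at least 1; the cause was not tested. On numbered arrays only the difference was 0.0324 for Notch1, 0.21 for Jag2, 0.0320 for Dll1 and 0.0702 for Hes1. Without the format term it was 0.0445 for Hes1 and -0.13 for Heyl, with array weights -0.0772 for Notch2 and -0.13 for Heyl, and on the other probe set -0.0485 for Notch2 and -0.0229 for Notch4. Leaving out each tumour gave -0.61 to 0.0324 for Notch1, -0.0074 to 0.14 for Notch2, -0.0642 to 0.23 for Jag1, -0.44 to 0.21 for Jag2, -0.39 to 0.0320 for Dll1, -0.22 to 0.0911 for Hes1, -0.0965 to 0.28 for Hey1, -0.12 to 0.21 for Heyl, -0.79 to -0.25 for Notch3 and 0.42 to 1.00 for Notch4. The number of called pairs among the 10 genes was 0 in the 8 Squamous tumours alone, 2 with array medians subtracted, 3 without EMT 4, 10 over all 17 tumours with each format centred (7 of them the same pairs) and 11 with the mean of probe sets (9 the same). With marker lists it was 0, 11, 8, 19 (10 the same) and 15 (10 the same) in these settings. The gene pairs lost over the 17 centred tumours were Notch3 with Hes1 (r = 0.46), Notch2 with Heyl (0.52) and Notch4 with Heyl (0.57). The list pair lost there was Heyl with the macrophage list (r = 0.48, adjusted permutation p = 0.192). Leaving out each numbered tumour in turn, added after seeing the data except for EMT 4, gave 0 to 10 pairs and 7 to 13 with lists. The probe set used for Jag1 was below the lower quartile of genes on 11 of 17 arrays. No paired analysis was possible because the replicate numbers only name tumours within a label.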
